A study of Mus musculus with 6 samples.

Results

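The insulin-like growth factor (IGF) axis of mouse neural retinal progenitor cells (mNRPCs) was examined through 10 genes, namely the IGF binding protein genes Igfbp2, Igfbp3, Igfbp4, Igfbp5, Igfbp6 and Igfbp7, the ligand gene Igf1, the receptor genes Igf1r and Insr, and the receptor substrate gene Irs1. The genes were chosen by name, with earlier results of these data known, and each had 1 row among the 55401 genes of the expression table. Igfbp3 was by far the most abundant of them. Between the Ifitm3 siRNA and the control siRNA libraries, 0 of the 7 genes high enough to test passed any threshold. At the most lenient, an unadjusted p under 0.05, 8.69% of all genes tested passed. With so few genes, a count of 0 is near this share and does not show that they are unchanged. Igfbp3 differed 3.78-fold between its highest and lowest library, with both replicate 2 libraries at the top.

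RNA was collected 48 h after transfection with an siRNA against Ifitm3 (3 libraries) or with a control siRNA (3 libraries, labelled only as control; whether it is the scramble control of the study's other assays is not stated). The cells are an adult mouse progenitor culture that the laboratory had established earlier. Both groups were grown on Matrigel in DMEM/F12 with N2 and B27 supplements, bFGF, CHIR99021 (an inhibitor of the kinase GSK3) and 2-mercaptoethanol, and both received the reagent Lipofectamine. N2 and B27 contain insulin, so the cells of both groups were grown with a ligand of the insulin receptor. Strain and sex of the source animals are not known here. Nothing says that the 3 libraries of a group came from separate cultures, and p-values therefore measure no more than the spread among these libraries, which can be technical. In bulk RNA, fewer cells of a type and less RNA per cell cannot be told apart.

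IGF1 and IGF2 are secreted growth factors that bind the type 1 IGF receptor, a tyrosine kinase encoded by Igf1r, and with lower affinity the insulin receptor encoded by Insr. The active receptors phosphorylate docking proteins such as IRS1, which recruit phosphoinositide 3-kinase (PI3K) and so activate AKT, a kinase of growth and survival that keeps FOXO transcription factors out of the nucleus. IGF binding proteins hold most IGF outside the cell, and they can withhold it from the receptor, prolong its life or deliver it when proteases cut them. In the retina, insulin and IGF1 are known as survival and growth factors for progenitors, neurons and glia.

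The knockdown itself was checked first. Ifitm3 was at 349.7, 546 and 398 FPKM (fragments of a gene, scaled by the length of its transcript and by the size of the library) in the Ifitm3 siRNA libraries and at 3121, 2120 and 2509 FPKM in the control siRNA libraries. The mean was 432 ± 102 FPKM (SD, n = 3) after Ifitm3 siRNA and 2584 ± 505 FPKM (SD, n = 3) after control siRNA, and the groups did not overlap (p = 0.1 in an exact permutation test, two-sided, which 3 against 3 libraries cannot go below). On the log2(FPKM + 0.1) scale, which is used for every fold change here, the value of Ifitm3 was -2.59 (SE 0.23), past the thresholds of the study but not past an adjusted p of 0.05 (adjusted p = 0.1001 from limma, a linear model across all genes). The strands of the Ifitm3 siRNA and its site are shown because any member with a like sequence could be touched by the siRNA directly. Capitals in the antisense strand mark its seed, bases 2 to 8, through which an siRNA can also act on other transcripts.
Ifitm3 siRNA sense strand: gaacuacugugaucaacau
Ifitm3 siRNA antisense strand: aUGUUGAUcacaguaguuc
Site in Ifitm3, nucleotides 250 to 268 of its 678-nt transcript, coding sequence, chromosome 7: gaactactgtgatcaacat

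No transcript of a member held the site. The nearest ungapped match to the sense strand over all annotated transcripts of the 10 genes had between 5 mismatches (Insr) and 8 mismatches (Igfbp6). The matches of Insr and of Igfbp3, the most abundant member, are shown with the bases that differ from the Ifitm3 site in capitals.
Insr, nucleotides 8072 to 8090 of 9355, 3' of the coding sequence: AaactactTtCatGaTcat
Igfbp3, nucleotides 1035 to 1053 of 2421, 3' of the coding sequence: AaaAGactgCCaAcaacat

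The 7-base complement of the seed, ATCAACA, was searched on the sense strand of the longest coding transcript of each member. It occurred once in each of Igf1r, Insr and Irs1, in the coding sequence, and in 0 of the 7 ligand and binding protein transcripts. The windows are shown with the 7 bases in capitals.
Igf1r, nucleotides 621 to 627 of 11409: agaagaccaccATCAACAatgagtacaac
Insr, nucleotides 1594 to 1600 of 9355: gtagcctgatcATCAACAtccgagggggc
Irs1, nucleotides 1137 to 1143 of 9144: gctgtttcaacATCAACAagcgggctgac

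The same 7 bases were in 21.3% of the 21901 longest coding transcripts of the genome and in 56.0% of the 441 that are 9000 to 12000 nt long, the class to which Insr, Irs1 and Igf1r belong. Among the 17910 transcripts of 1000 to 7100 nt, the class of the other members, the share was 20.8%. These matches are a description of the letters and not of sites of action.

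How many reads each library had is unknown. The steps between low FPKM values of short genes put the libraries at a rough 21100000 to 25300000 fragments, and 11966 to 12274 genes per library reached 1 FPKM. On the first principal component of the log2 values (37.1% of the variance), the replicate 2 libraries of both groups lay apart from the remaining 4, and the second component (22.3%) separated the groups. The label of retinal progenitor was checked against 11 markers, of which 8 had a mean of at least 0.5 FPKM, among them Pax6 (8.39 to 13.7 FPKM), Six3 (7.71 to 11.9 FPKM) and Sox2 (32.1 to 58.6 FPKM). Rax and Six6, defining genes of the progenitors of the eye field, were listed at 0 in every library. Of the markers of other cells, 5 of 10 for fibroblasts and mesenchyme had a mean of at least 0.5 FPKM (sum 112 to 203 FPKM after Ifitm3 siRNA and 158 to 211 FPKM after control siRNA, mostly Col3a1), with Lum and Thy1 below 0.1 FPKM. Twist1 (22.94 to 34.65 FPKM) and Prrx1 (9.65 to 17.8 FPKM) came next, whereas Col1a1, Col1a2 and Dcn did not exceed 0.38 FPKM. For pericytes and smooth muscle the number with such a mean was 3 of 8 (13.4 to 27.0 and 22.8 to 43.5 FPKM, mostly Acta2). For photoreceptors and retinal neurons it was 1 of 10, Tubb3 (sums of 2.92 to 6.93 and 4.37 to 9.62 FPKM), with Crx and Nrl below 0.1 FPKM. The sums did not exceed 0.30 FPKM for markers of the retinal pigment epithelium, endothelium, or microglia and macrophages in any library.

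The members differed widely in level. On the FPKM scale, which is per length of transcript, the order of the means over the 6 libraries was Igfbp3, Igf1r, Irs1, Insr, Igfbp7, Igfbp6, Igfbp2, Igfbp5, Igfbp4 and Igf1. Igfbp3 was above Igf1r, Igf1r above Irs1, Igfbp2 above Igfbp5 and Igfbp4 above Igf1 without overlap of their ranges. Irs1 and Insr were in that order in 5 of 6 libraries, Insr and Igfbp7 in 5, Igfbp7 and Igfbp6 in 4, Igfbp6 and Igfbp2 in 3, and Igfbp5 and Igfbp4 in 4, so these neighbours overlapped. Igfbp3 stood at rank 262 of all genes by its mean, whereas the receptors and Irs1 were all below 7 FPKM and Igf1 was at 0.05 FPKM or less.

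**Figure D1:**
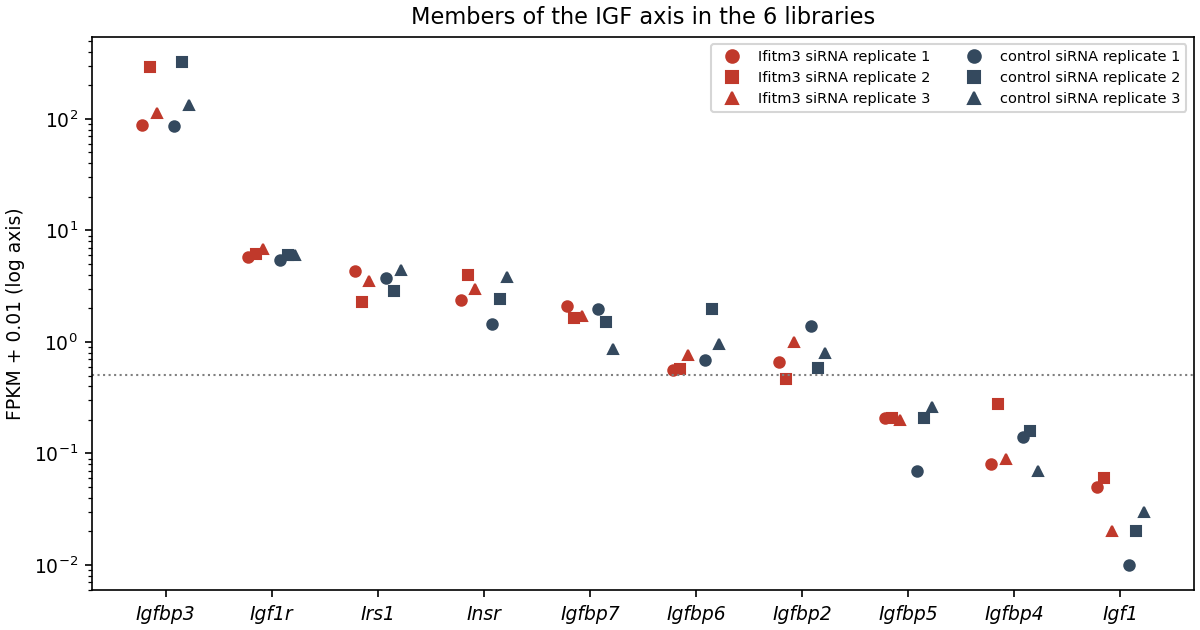
FPKM + 0.01 on a log axis for the 10 members, ordered by their mean, with 1 point per library (red, Ifitm3 siRNA; dark blue, control siRNA; circle, square and triangle for replicates 1, 2 and 3). Igfbp3 lies between 85.8 and 324 FPKM, well above Igf1r at 5.44 to 6.87 FPKM, and the 3 members with all libraries below the dotted line at 0.5 FPKM were not tested.

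Igfbp3 encodes the main IGF carrier of the blood, where it forms a complex with IGF and the acid-labile subunit, and it is also secreted by many cultured cells. The gene lies on chromosome 11 (ENSMUSG00000020427, GRCm38 chr11:7206086-7213923, minus strand). It was at 88.3, 293 and 114 FPKM in Ifitm3 siRNA replicates 1, 2 and 3 and at 85.8, 324 and 133 FPKM in control siRNA replicates 1, 2 and 3. Replicate 2 was the highest library of each group and the groups overlapped throughout. The mean was 165 ± 111 FPKM (SD, n = 3) after Ifitm3 siRNA and 181 ± 126 FPKM (SD, n = 3) after control siRNA. Its log2 fold change was -0.11 (SE 0.60, 95% interval -1.55 to 1.33, adjusted p = 0.966 from limma). The interval reaches past a log2 change of 1 in both directions. Leaving out control siRNA replicate 2, Ifitm3 siRNA replicate 1 or Ifitm3 siRNA replicate 3 turned the sign, with values of 0.42, 0.24 and 0.05. Without both replicate 2 libraries the log2 fold change was -0.09, with a narrower interval of -0.79 to 0.61 (adjusted p = 0.909 from limma).

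The spread of Igfbp3 followed the library number rather than the siRNA. Replicate 2 was 2.89 times the mean of the other libraries in the Ifitm3 siRNA group and 2.96 times in the control siRNA group. Ifitm3 siRNA over control siRNA gave ratios of 1.03, 0.903 and 0.857 for the libraries numbered 1, 2 and 3. Of the variance of its log2 values, 99.0% lay between replicate numbers, 0.507% between the siRNAs and 0.510% in the rest, against medians of 43.4%, 17.1% and 23.8% over all genes tested, and the share between numbers was higher than in 99.8% of those genes. No source says what libraries of the same number have in common. The summed FPKM of 7 markers of Müller glia and astrocytes was highest in the same libraries. The sums were 28.2, 87.0 and 42.7 FPKM in Ifitm3 siRNA replicates 1, 2 and 3. In control siRNA replicates 1, 2 and 3 they were 41.4, 136 and 36.0 FPKM. In the replicate 2 libraries these sums consisted mostly of Dkk3 (65.9 FPKM after Ifitm3 siRNA and 118 FPKM after control siRNA). Glul, the next marker by mean, was at 16.8, 17.7 and 16.4 FPKM in Ifitm3 siRNA replicates 1, 2 and 3. In control siRNA replicates 1, 2 and 3 it was at 15.1, 15.7 and 16.9 FPKM, with replicate 3 the highest there. Only 3 of the 7 markers had a mean of at least 0.5 FPKM, and Rlbp1, a defining gene of Müller glia, was at 0.11 FPKM or less. Their part in the level of Igfbp3 was not tested.

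**Figure D2:**
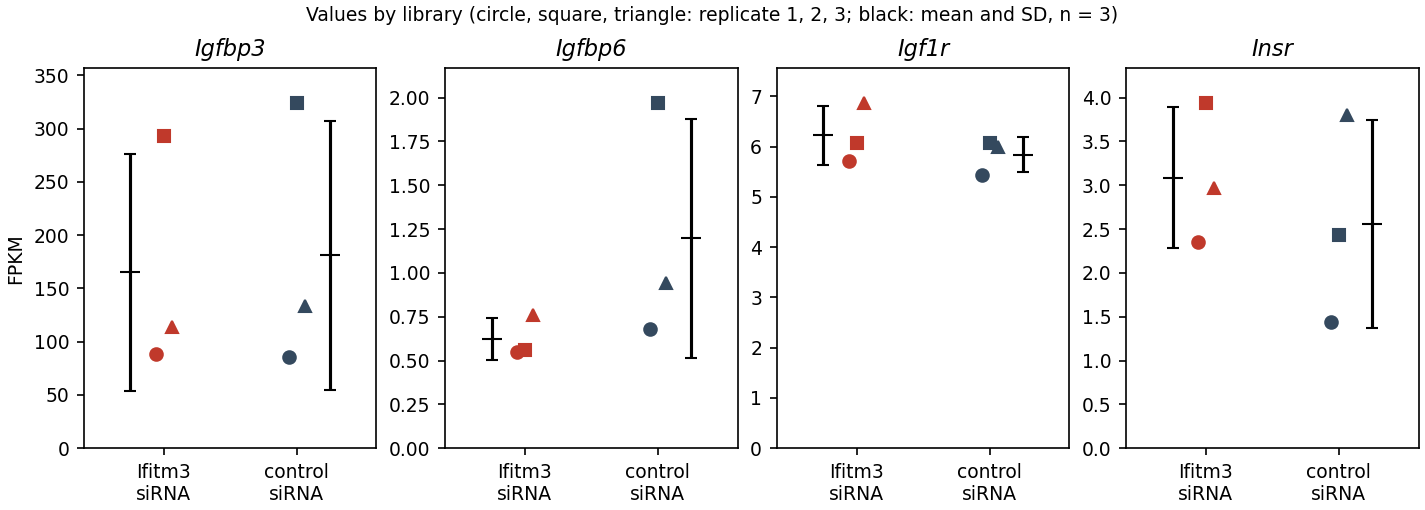
FPKM of Igfbp3, Igfbp6, Igf1r and Insr, each on its own axis from 0, with 1 point per library (Ifitm3 siRNA left, control siRNA right; circle, square and triangle for replicates 1, 2 and 3) and the mean and SD of 3 libraries in black. Both replicate 2 libraries of Igfbp3 lie at 293 and 324 FPKM, while Igf1r stays between 5.44 and 6.87 FPKM in all 6.

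The genes whose log2 values correlated most with Igfbp3 over the 6 libraries, among 7379 others with a mean of at least 5 FPKM, were Ralgds (Pearson r = 0.993), Adamts14 (0.986), Yaf2 (0.980), Plau (0.979) and 1700016C15Rik (0.978). Looking at Igfbp3 in this way was decided after its values were seen, and 51 of the 7379 genes had an r above 0.95. The correlations rest on the same 6 libraries and are a description. Plau, which encodes the protease urokinase, was at 5.67, 23.2 and 8.47 FPKM in Ifitm3 siRNA replicates 1, 2 and 3 and at 6.55, 37.8 and 8.27 FPKM in control siRNA replicates 1, 2 and 3. Ralgds, which encodes an exchange factor for Ral GTPases, was at 16.2, 27.9 and 18.8 FPKM in the Ifitm3 siRNA libraries and 16.2, 31.4 and 21.1 FPKM in the control siRNA libraries. All 5 genes had their highest value of each group in replicate 2, as Igfbp3 did.

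**Figure D3:**
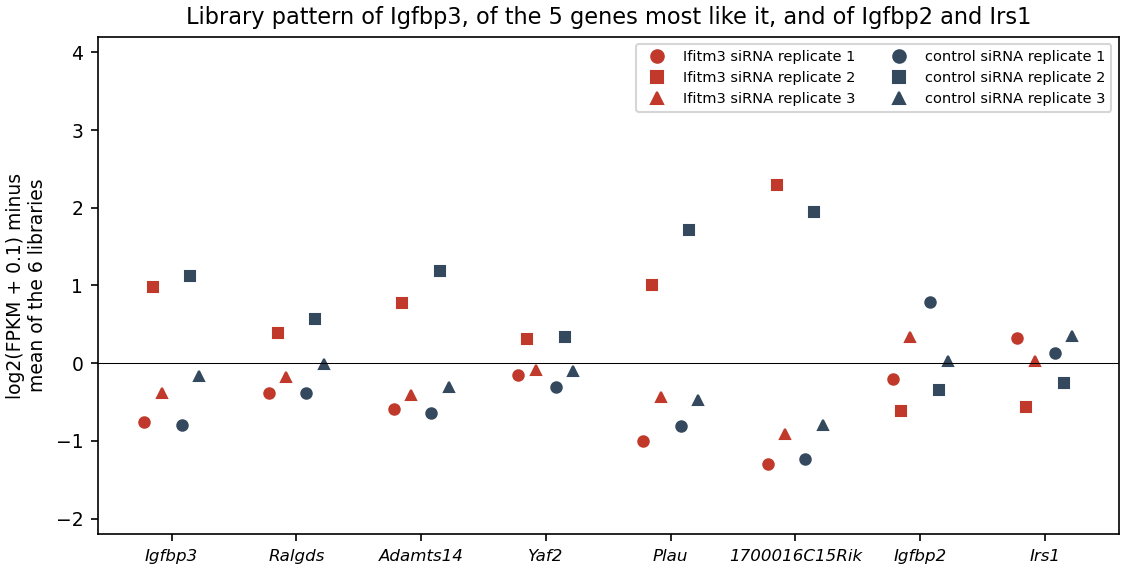
Library pattern of Igfbp3, of the 5 genes most correlated with it and, for contrast, of Igfbp2 and Irs1, as log2(FPKM + 0.1) minus the mean of the 6 libraries (red, Ifitm3 siRNA; dark blue, control siRNA; circle, square and triangle for replicates 1, 2 and 3). The squares, replicate 2 of both groups, are on top for Igfbp3 and its 5 companions, which were picked for that likeness, and below 0 for Igfbp2 and Irs1.

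Igfbp3 dominated the binding protein transcripts. It made up 96.1%, 98.9% and 96.8% of the summed FPKM of the 6 binding protein genes in the Ifitm3 siRNA libraries and 95.3%, 98.7% and 97.9% in the control siRNA libraries. The other 5 genes together reached 3.57, 3.12 and 3.73 FPKM in the Ifitm3 siRNA libraries and 4.21, 4.39 and 2.88 FPKM in the control siRNA libraries. Igfbp3 was at 15.5, 48.1 and 16.6 times the FPKM of Igf1r after Ifitm3 siRNA and at 15.8, 53.4 and 22.2 times after control siRNA. The low values of the other binding proteins raise the question whether reads of Igfbp3 could be counted for them. The longest identical runs between the coding sequence of Igfbp3 and those of the others are shown to bear on this.
Igfbp2 (coding nucleotides 181 to 213 of 915) and Igfbp3 (184 to 216 of 876): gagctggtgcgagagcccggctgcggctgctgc
Igfbp3 (785 to 806 of 876) and Igfbp5 (716 to 737 of 813): tctgctggtgtgtggacaagta

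The run of 33 nt with Igfbp2 was the longest of all pairs, the run with Igfbp5 had 22 nt, and the other pairs among these 6 genes and Igfbp1 shared 10 to 18 nt. Each of these is shorter than the 150-nt reads. Like Igfbp3, Igfbp4 was highest in replicate 2 of each group, whereas Igfbp2 was lowest there, and whether reads of Igfbp3 were counted for the others was not tested.

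Igfbp6 encodes a binding protein that prefers IGF2 over IGF1, and it had the smallest p of the members (chr15:102144362-102149511, plus strand). It was at 0.55, 0.56 and 0.76 FPKM in the Ifitm3 siRNA libraries and at 0.68, 1.97 and 0.94 FPKM in the control siRNA libraries. Control siRNA replicate 2 was the highest value and the groups overlapped between 0.68 and 0.76 FPKM. The mean was 0.623 ± 0.118 FPKM (SD, n = 3) after Ifitm3 siRNA and 1.20 ± 0.682 FPKM (SD, n = 3) after control siRNA. With a log2 fold change of -0.73 (SE 0.40, 95% interval -1.68 to 0.22) it did not pass (unadjusted p = 0.112 and adjusted p = 0.630 from limma, p = 0.2 in a two-sided exact permutation test). It was -0.33 without control siRNA replicate 2 and -1.03 without control siRNA replicate 1 (unadjusted p = 0.0413, adjusted p = 0.920 from limma). These values rest on a rough 14 to 49 fragments per library.

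The 5 genes most correlated with Igfbp6, among 7380 others with a mean of at least 5 FPKM, were Bcl7c (Pearson r = 0.973 over 6 libraries), Sfxn3 (0.970), Gm45717 (0.969), Fam129a (0.954) and E2f8 (0.953). Each had its highest value in control siRNA replicate 2, and Gm45717 was at 352 FPKM in that library and at 0.87 FPKM or less in the others. Fam129a, for example, was at 29.9, 33.2 and 34.9 FPKM in the Ifitm3 siRNA libraries and at 38.3, 61.0 and 36.7 FPKM in the control siRNA libraries. The likeness to Igfbp6 is thus mostly that 1 library is high.

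Igfbp7 encodes a secreted matrix-associated protein with only weak affinity for IGF (chr5:77349240-77408041, minus strand). It was at 2.10, 1.63 and 1.71 FPKM in the Ifitm3 siRNA libraries and at 1.96, 1.49 and 0.85 FPKM in the control siRNA libraries, with control siRNA replicate 3 as the low value. The mean was 1.81 ± 0.251 FPKM (SD, n = 3) after Ifitm3 siRNA and 1.43 ± 0.557 FPKM (SD, n = 3) after control siRNA. The difference was 0.38 on the log2 scale (SE 0.31, 95% interval -0.35 to 1.12, adjusted p = 0.737 from limma). The values of Igfbp7 rest on a rough 24 to 60 fragments per library. Igfbp7 overlaps Polr2b, a subunit gene of RNA polymerase II on the opposite strand at 22.8 to 25.8 FPKM. The library preparation marked the strand, but whether the counting used it is not stated, so part of the signal of Igfbp7 could belong to Polr2b.

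Igfbp2 encodes a binding protein with an integrin-binding motif (chr1:72824503-72852474, plus strand). It was at 0.65, 0.46 and 0.99 FPKM in the Ifitm3 siRNA libraries and at 1.38, 0.58 and 0.78 FPKM in the control siRNA libraries. In contrast to Igfbp3, replicate 2 was the lowest library of each group, at 0.561 times the mean of the others after Ifitm3 siRNA and 0.537 times after control siRNA. The mean was 0.70 ± 0.269 FPKM (SD, n = 3) after Ifitm3 siRNA and 0.913 ± 0.416 FPKM (SD, n = 3) after control siRNA. This gave a log2 fold change of -0.32 (SE 0.40, 95% interval -1.27 to 0.63, adjusted p = 0.836 from limma).

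Igfbp5 and Igfbp4 were below the level tested. Igfbp5, whose protein like that of Igfbp3 can join the acid-labile subunit, was at 0.20, 0.20 and 0.19 FPKM in the Ifitm3 siRNA libraries and at 0.06, 0.20 and 0.25 FPKM in the control siRNA libraries (chr1:72857932-72874884, minus strand). Igfbp4, which encodes an inhibitory binding protein that the protease PAPP-A cleaves, was at 0.07, 0.27 and 0.08 FPKM in the Ifitm3 siRNA libraries and at 0.13, 0.15 and 0.06 FPKM in the control siRNA libraries (chr11:99041244-99054392, plus strand). The groups of both genes overlapped. Igfbp2 and Igfbp5 are neighbours that face each other, 5457 bp apart with 0 annotated genes between them, and Igfbp2 was above Igfbp5 in all 6 libraries. Igfbp3 has the analogous neighbour Igfbp1 at 3539 bp, and there the difference was extreme, since Igfbp1 was listed at 0 in 5 libraries and at 0.03 FPKM in Ifitm3 siRNA replicate 3.

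Transcripts of IGF and insulin themselves were almost missing. Igf1 (chr10:87858265-87937042, plus strand) was at 0.04, 0.05 and 0.01 FPKM in the Ifitm3 siRNA libraries and was listed at 0, 0.01 and 0.02 FPKM in the control siRNA libraries, a rough 0 to 8 fragments. The groups overlapped, and differences at this level were not detectable at this depth. Igf2, the second IGF gene, was listed at 0.02 FPKM in Ifitm3 siRNA replicate 1 and at 0 in the other 5 libraries. Both insulin genes of the mouse, Ins1 and Ins2, were listed at 0 in every library. Igfals, the gene of the acid-labile subunit, did not exceed 0.06 FPKM.

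Both receptors were present at a few FPKM. Igf1r (chr7:67952827-68233668, plus strand) was at 5.71, 6.08 and 6.87 FPKM in the Ifitm3 siRNA libraries and at 5.44, 6.07 and 6 FPKM in the control siRNA libraries. It was the steadiest member, with a highest library 1.26 times the lowest, and the groups overlapped. The mean was 6.22 ± 0.593 FPKM (SD, n = 3) after Ifitm3 siRNA and 5.84 ± 0.345 FPKM (SD, n = 3) after control siRNA. On the log2 scale the difference was 0.09 (SE 0.13, 95% interval -0.22 to 0.39, adjusted p = 0.856 from limma). This was the narrowest interval of the members, and it does not reach a log2 change of 1 in either direction.

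Insr (chr8:3122061-3279617, minus strand) was at 2.35, 3.94 and 2.97 FPKM in the Ifitm3 siRNA libraries and at 1.44, 2.43 and 3.8 FPKM in the control siRNA libraries. Control siRNA replicate 1 was the lowest value and the groups overlapped. The mean was 3.09 ± 0.801 FPKM (SD, n = 3) after Ifitm3 siRNA and 2.56 ± 1.19 FPKM (SD, n = 3) after control siRNA. For Insr the log2 fold change was 0.33 (SE 0.36, 95% interval -0.53 to 1.20, adjusted p = 0.804 from limma), and it was -0.01 without control siRNA replicate 1. Igf1r exceeded Insr in every library, by 2.43, 1.54 and 2.31 times after Ifitm3 siRNA and by 3.78, 2.50 and 1.58 times after control siRNA. Igf2r, the gene of a receptor that clears IGF2 without signaling through a kinase, was higher than both at 50.8, 55.3 and 61.2 FPKM after Ifitm3 siRNA and at 62.3, 54.8 and 48.5 FPKM after control siRNA (log2 fold change 0.02, SE 0.14, adjusted p = 0.978 from limma). It stood at 8.08 to 11.5 times the FPKM of Igf1r.

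Irs1, the docking protein gene downstream of both receptors (chr1:82233101-82291416, minus strand), was at 4.31, 2.28 and 3.49 FPKM in the Ifitm3 siRNA libraries and at 3.76, 2.87 and 4.40 FPKM in the control siRNA libraries. Replicate 2 was again the lowest library of each group and the groups overlapped. The mean was 3.36 ± 1.02 FPKM (SD, n = 3) after Ifitm3 siRNA and 3.68 ± 0.768 FPKM (SD, n = 3) after control siRNA. For Irs1 the log2 fold change was -0.15 (SE 0.27, 95% interval -0.80 to 0.49, adjusted p = 0.890 from limma), and it was 0.10 without Ifitm3 siRNA replicate 2. The related Irs2 was at 8.40, 4.84 and 4.70 FPKM after Ifitm3 siRNA and at 6.75, 4.80 and 8.37 FPKM after control siRNA, and Irs4 did not exceed 0.02 FPKM.

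Taking the members as a set, 7 of 10 had a mean of at least 0.5 FPKM and were tested. Of these, 3 lay above 0 on the log2 fold change and 4 lay below it, and their median was -0.11, against a median of 0.04 over all 13588 genes tested. At the thresholds of the study (absolute log2 fold change over 1 and unadjusted p under 0.05), 0 members passed in either direction, where 1.43% of all genes tested did. At an unadjusted p under 0.05 alone, 0 members passed, where 8.69% of all genes did. At an adjusted p under 0.05 the count was 0 of 7, and 1 gene (0.00736%) of all. The groups did not overlap in 0 of the 7 tested members and in 15.6% of all genes tested. With so few members, counts of 0 are near the background, and they do not show that the genes are unchanged.

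The other genes of the axis were taken from 5 lists of 58 genes in all, of which 38 were tested. Their log2 fold changes were above 0 in 19 and below 0 in 19 (median 0.0015), against 7715 and 5873 of all genes tested. At an unadjusted p under 0.05, 1 of the 38 was lower and 0 were higher, where 8.69% of all genes tested passed. Over the alternatives, the count for these lists ranged from 0 to 3 in each direction. The 3 higher came without control siRNA replicate 2 (886 of all 13623 genes tested). The 3 lower came without control siRNA replicate 3 (319 of all 13622). At the thresholds of the study and at an adjusted p under 0.05 the count was 0, where 1.43% and 0.00736% of all genes passed. The groups did not overlap in 4 of the 38, namely Socs3, Pik3ca, Pik3r2 and Ccn4, where 15.6% of all genes tested did not. Among the 20 genes below the level tested, the groups of Socs2 did not overlap. The share of 15.6% does not cover genes this low, and none was computed for them.

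Socs3, which encodes a feedback inhibitor of cytokine signaling that can also bind the insulin receptor, was the gene that passed. It was at 18.1, 24.8 and 26.8 FPKM in the Ifitm3 siRNA libraries and at 60.1, 34.4 and 30.4 FPKM in the control siRNA libraries. Every Ifitm3 siRNA library lay below every control siRNA library, and control siRNA replicate 1 was far above the rest. The mean was 23.2 ± 4.52 FPKM (SD, n = 3) after Ifitm3 siRNA and 41.6 ± 16.1 FPKM (SD, n = 3) after control siRNA. Its log2 fold change was -0.79 (SE 0.29, 95% interval -1.47 to -0.11, unadjusted p = 0.0286, adjusted p = 0.537 from limma). It was -0.50 without control siRNA replicate 1 (unadjusted p = 0.0571, adjusted p = 0.920 from limma) and -0.62 without Ifitm3 siRNA replicate 1 (unadjusted p = 0.0911, adjusted p = 0.601 from limma). Socs3 therefore passed only the unadjusted threshold, and not without either of these libraries. In the same list of substrates, adaptors and feedback genes, 11 of 17 were tested, with 3 above 0, 8 below 0 and a median of -0.11. Its most abundant tested gene was Shc1, which encodes an adaptor that links receptors to RAS, at 42.0, 42.9 and 46.7 FPKM after Ifitm3 siRNA and 45.4, 48.3 and 55.6 FPKM after control siRNA (log2 fold change -0.18, adjusted p = 0.709 from limma). The adaptor genes Grb7, Grb10 and Grb14 did not exceed 0.01 FPKM.

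In the list of PI3K, AKT and FOXO genes, 15 of 16 were tested, with 9 above 0, 6 below 0 and a median of 0.08. At an unadjusted p under 0.05, 0 passed in either direction. With the replicate number as a block, Pdpk1 was higher and Akt2 lower at that threshold. In that setting 1001 of all 13588 genes tested were higher and 636 were lower. Akt1 was the most abundant at 112, 62.1 and 87.8 FPKM after Ifitm3 siRNA and 98.0, 73.7 and 102 FPKM after control siRNA (log2 fold change -0.09, adjusted p = 0.929 from limma). Pik3r2, which encodes a regulatory subunit of PI3K, was at 27.7, 27.6 and 27.9 FPKM in the Ifitm3 siRNA libraries and at 24.0, 25.6 and 23.7 FPKM in the control siRNA libraries (log2 fold change 0.18, adjusted p = 0.634 from limma). Its groups did not overlap, but the difference was small. Pik3ca, the gene of a catalytic subunit, was named after its values were seen and was at 9.54, 10.8 and 6.65 FPKM after Ifitm3 siRNA and 6.44, 6.31 and 6.61 FPKM after control siRNA (log2 fold change 0.44, adjusted p = 0.585 from limma). Its lowest Ifitm3 siRNA library was just above the highest control siRNA library.

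Of the proteases that cleave IGF binding proteins and their inhibitors, 3 of 7 were tested, with 2 above 0, 1 below 0 and a median of 0.06. Pappa and Pappa2, the pappalysin genes, did not exceed 0.02 FPKM. Htra1, which encodes a secreted serine protease with an IGF binding protein domain, was at 163, 271 and 215 FPKM after Ifitm3 siRNA and 213, 455 and 208 FPKM after control siRNA (log2 fold change -0.36, SE 0.35, adjusted p = 0.777 from limma). As for Igfbp3, replicate 2 was the highest library of each group. The related Htra3 was at 6.66, 18.7 and 8.14 FPKM after Ifitm3 siRNA and 7.94, 11.6 and 4.75 FPKM after control siRNA (log2 fold change 0.40, adjusted p = 0.817 from limma), with replicate 2 highest here too. The replicate 2 libraries lay apart over all genes on the first principal component. The share of all genes with replicate 2 highest, or lowest, in both groups was not counted.

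Of 13 other genes whose proteins carry an IGF binding protein domain, Htra1 and Htra3 included, 10 were tested, with 5 above 0, 5 below 0 and a median of -0.02. Ccn1, which encodes a matricellular protein, was at 205, 43.9 and 54.2 FPKM after Ifitm3 siRNA and 115, 59.8 and 137 FPKM after control siRNA (log2 fold change -0.32, SE 0.61, adjusted p = 0.902 from limma). Replicate 2 was the lowest library of each group, the reverse of Igfbp3. Ccn4, a related gene named after its values were seen, was at 4.02, 4.61 and 4.29 FPKM after Ifitm3 siRNA and 9.29, 5.77 and 4.95 FPKM after control siRNA (log2 fold change -0.57, unadjusted p = 0.05004, adjusted p = 0.573 from limma). It lay at the unadjusted threshold and passed it under 5 alternatives, among them median-ratio scaling and quantile normalization (unadjusted p = 0.0324 in both). Socs2, which was below the level tested, was at 0.07, 0.28 and 0.06 FPKM after Ifitm3 siRNA and 0.02, 0.03 and 0.05 FPKM after control siRNA. Its lowest Ifitm3 siRNA value, 0.06 FPKM, lay just above its highest control siRNA value, 0.05 FPKM, and the values are rounded to 2 decimals.

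**Figure D4:**
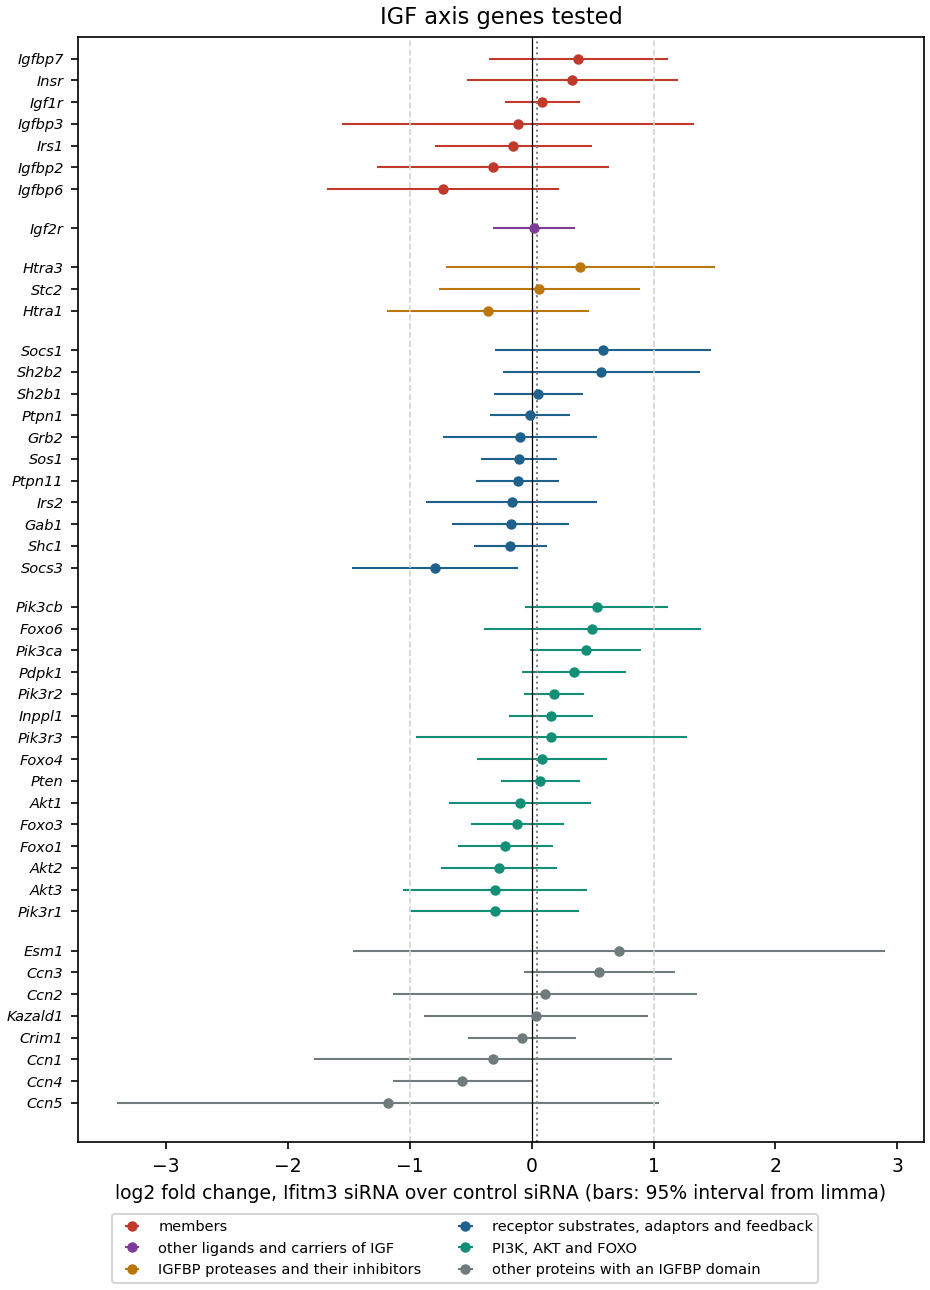
Log2 fold change of Ifitm3 siRNA over control siRNA with its 95% interval from limma for the 7 members tested and the 38 other genes of the IGF axis tested, by list, with the median of all genes as a dotted line and log2 fold changes of -1 and 1 dashed. All member intervals include 0, the interval of Igf1r is the narrowest of the members (-0.22 to 0.39) and that of Igfbp3 the widest (-1.55 to 1.33), and among the other genes only the interval of Socs3 excludes 0, with Ccn4 at the border.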

How the data were processed

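The files the authors deposited hold FPKM for each gene in each of 6 libraries, rounded to 2 decimals, and every column matched a sample (0 unmapped). The tools named in the submitters' notes are HISAT2 2.0.4, StringTie 1.3.4d and cutadapt 1.9, with hg18, a human build, although the identifiers are murine. Of 55401 identifiers, 99.5% were in GENCODE vM21 (GRCm38), the source of coordinates and transcript sequences. The siRNA strands come from a supplementary table. Genes averaging 0.5 FPKM or more (13588) were tested on log2(FPKM + 0.1), a scale that understates changes of low genes, with limma 3.58.1 in R 4.3.3 (condition only, mean-variance trend, two-sided, Benjamini-Hochberg adjustment over all of them), which was tested on simulated data. The study's thresholds were read as log2 and unadjusted. Besides the members, genes are named that had an unadjusted p under 0.05, that were the 2 most abundant tested in a list, or that were the 5 most correlated with the member of smallest p. The rest were named after their values were seen. The members and lists were chosen with earlier results of these data known. Alternatives changed the pseudocount, filter, scaling, moderation, block and libraries. Fragment numbers were estimated from the spacing of low values (Python 3.11.15, NumPy 2.4.6, pandas 2.3.3).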

Additional observations from a re-analysis of the deposited data

How the results depend on the processing

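Over 15 alternatives, 103 fold changes of the tested members were recomputed. Of these, 26 equal the main value by construction (filters, no trend, block). Of the 77 that could move, 72 kept their direction and 5 turned, and 0 of the 103 passed an adjusted p of 0.05. Each turn came from leaving out 1 library, with Insr at -0.0095 without control siRNA replicate 1, Igfbp3 at 0.42 without control siRNA replicate 2, at 0.24 without Ifitm3 siRNA replicate 1 and at 0.05 without Ifitm3 siRNA replicate 3, and Irs1 at 0.10 without Ifitm3 siRNA replicate 2. Leaving out 1 library in turn, the log2 fold change ranged from -0.57 to -0.01 for Igfbp2, from -0.62 to 0.42 for Igfbp3, from -1.03 to -0.33 for Igfbp6, from 0.07 to 0.63 for Igfbp7, from 0.02 to 0.15 for Igf1r, from -0.01 to 0.66 for Insr and from -0.35 to 0.10 for Irs1. The number of members at an unadjusted p under 0.05, and at the thresholds of the study, ranged from 0 to 1, the 1 being Igfbp6 without control siRNA replicate 1. The adjusted p from limma lay between 0.484 and 0.920 for Igfbp6 and between 0.700 and 0.993 for Igfbp3 over all alternatives. Of the other axis genes, 0 to 3 were higher and 0 to 3 lower at an unadjusted p under 0.05. The 3 higher came without control siRNA replicate 2, where 886 of all 13623 genes tested were higher. The 3 lower came without control siRNA replicate 3, where 319 of all 13622 were lower. Ccn4 joined Socs3 with a pseudocount of 0.01, a mean of at least 1 FPKM, median-ratio scaling, quantile normalization and without control siRNA replicate 3. The median of the other axis genes was 0.0015, against -0.080 with a mean of at least 1 FPKM and -0.055 with median-ratio scaling. The first of these tests fewer genes, and the scaling moves the median of all genes to -0.01. With a mean of at least 1 FPKM, Igfbp2 and Igfbp6 gave no value. Scaling also moved the split of all calls at an unadjusted p under 0.05, with 723 higher and 458 lower as deposited, 496 and 654 with median-ratio scaling and 513 and 604 with quantile normalization. At the thresholds of the study the split was 126 and 68, against 104 and 86 and against 95 and 79.

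For libraries of the same number, the r of the deviations from the group means was 0.07, 0.43 and 0.03 for numbers 1, 2 and 3. It was thus weak for numbers 1 and 3 and higher for number 2. Between libraries of unlike number in the 2 groups, r lay between -0.37 and 0.36. No source says that the numbers pair the libraries, and they were not taken to do so. A replicate block gave 1001 higher and 636 lower calls among the 13588 genes tested at an unadjusted p under 0.05. It put 0 members past any threshold, and in this balanced design it cannot move a fold change. For Igfbp3 the SE was 0.11 with the block and 0.60 without it, and the 95% interval around -0.11 was -0.40 to 0.18 with it (adjusted p = 0.700 from limma). Pdpk1 (log2 fold change 0.35, unadjusted p = 0.0352, adjusted p = 0.384 from limma) and Akt2 (-0.27, unadjusted p = 0.0485, adjusted p = 0.412 from limma) passed the unadjusted threshold only with the block. Socs3 was at an unadjusted p of 0.0567 with the block (adjusted p = 0.419 from limma) and at 0.0622 without both replicate 2 libraries (adjusted p = 0.493 from limma). Depth limits Igfbp2, Igfbp4, Igfbp5, Igfbp6, Igfbp7 and Igf1, which rest on few fragments.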
